A study of Mus musculus with 18 samples.

Results

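The tumour suppressor p53 is held in check by genes that it switches on itself. Mdm2 encodes the ubiquitin ligase that marks p53 for degradation, its relative Mdm4 covers the activation domain of p53, and Ppm1d encodes the phosphatase Wip1, which removes damage-dependent phosphates from p53 and its kinases. A further set of p53 targets acts on survival, among them Phlda3, which competes with the kinase Akt for membrane lipids, and the nuclease gene Aen. Blood leukocytes are among the cells known to switch on p53 targets within hours of irradiation.

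The 10 genes Trp53, Mdm2, Mdm4, Ppm1d, Phlda3, Trp53inp1, Zmat3, Aen, Ei24 and Perp were taken from the arrays by gene name, in current or older form. They were represented by 21 of the 41174 non-control probes. All 10 had a probe past the filter on dim signals, among 13612 genes that did, and 18 of the 21 probes passed it. The genes were chosen for their known roles, with earlier results of these data known.

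RNA was measured in whole blood of male C57BL/6N mice aged 8 to 12 weeks, 6 hours after sham treatment (0 Gy, 7 samples) or exposure to a cesium gamma source at 2 Gy (5 samples) or 8 Gy (6 samples). The series describes the 18 samples as distinct biological samples, each on 1 Agilent 1-colour array. Blood came from cardiac puncture and globin RNA was removed. RNA was extracted with a PAXgene kit for 2 of the 0 Gy samples and 1 of the 2 Gy samples, and with a RiboPure kit for all others, so the 8 Gy group holds 1 kit. Whole blood is a mixture of cells, and fewer cells of a type and less RNA per cell cannot be told apart in it.

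Levels are log2 intensities relative to the 75th percentile of the array, so a level of 1 is double that percentile, and levels are compared between samples and not between genes. That percentile was 138 to 425 intensity units on the 0 Gy arrays, 46.4 to 186 on the 2 Gy arrays and 58.4 to 232 on the 8 Gy arrays. The 0 Gy arrays had 19263 to 24448 probes well above background, the 2 Gy arrays 15457 to 19520 and the 8 Gy arrays 16942 to 22789. Fold changes come from a limma model with dose and kit, with standard errors, and a gene passed at an adjusted p (Benjamini-Hochberg over 13612 genes) under 0.05. The levels and group means in text and figures are not adjusted for kit. A fold change can therefore differ from the difference between group means.

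The probes are 60 bases long, and some of those on which the results turn are shown. Their positions are on the mouse build mm7 as the array files give them. No annotation of that build was used here, so exons and UTRs are not assigned. The first sequence of each pair is the first 30 bases of the brighter probe, which stands for the gene. The second sequence of Trp53 and Mdm2 is a whole probe that was printed in 10 spots on every array, and that of Aen is again 30 bases. The pairs are shown because the probes of Trp53 went opposite ways, those of Mdm2 went the same way, and the brightest probe named Aen lies on another chromosome than the gene.
Trp53 A_52_P781398, chr11:69662031-69662089, plus strand: gcattcaggccctcatcctcctccttccca
Trp53 A_52_P491849, chr11:69671206-69671265, plus strand: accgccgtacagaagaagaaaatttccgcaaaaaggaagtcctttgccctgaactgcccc
Mdm2 A_52_P469842, chr10:117200593-117200652, minus strand: cattcagaaagactgaatcagaacatggat
Mdm2 A_51_P201346, chr10:117204040-117204099, minus strand: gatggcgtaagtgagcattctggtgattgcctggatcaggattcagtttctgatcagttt
Aen A_52_P940978, chr4:14158325-14158384, minus strand: cttgctcatagtaccagaccatcggcatag
Aen A_52_P443705, chr7:74771219-74771278, plus strand: catttggaaacgtgacaacagtaatccagg

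At 8 Gy against 0 Gy, 6 of the 10 genes rose and none fell. These were Phlda3, Aen, Zmat3, Trp53inp1, Ei24 and Mdm2, with fold changes from 2.31 to 7.22. Over all genes tested, 12.0% passed in either direction and 7.58% rose. The median of the 10 was a log2 fold change of 1.36, beside 0.08 for all genes. Trp53, Mdm4, Ppm1d and Perp did not pass by the probe that stands for the gene, while a second Mdm4 probe passed over all probes.

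At 2 Gy against 0 Gy, none of the 10 passed the limma test, while 6 of them, Mdm2, Phlda3, Trp53inp1, Zmat3, Aen and Ei24, had an unadjusted p under 0.05. Over all genes, 0.0588% passed at this dose, and 2785 of 13612 had an unadjusted p under 0.05. The median log2 fold change of the 10 was 0.84, beside 0.06 for all genes. Without 8 Gy replicate 1, which enters the shared estimate of spread, Phlda3, Zmat3 and Aen passed at 2 Gy (adjusted p = 0.0320 to 0.0350), as did 160 of all 13612 genes in that fit. The comparisons of 8 Gy and of 2 Gy use the same 0 Gy samples.

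One sham-treated sample, 0 Gy replicate 5, stood apart from the other 0 Gy samples. It had the highest 0 Gy level of 6 of the 10 genes, and these were the 6 that rose at 8 Gy. Across all genes, 22.2% had their highest 0 Gy level in that sample. Its summed B cell marker level was 39.2, against 126 to 283 in the other 0 Gy samples, and its neutrophil marker sum was 2605, against 471 to 1037. Summed levels add the linear levels of the markers, in multiples of the array's 75th percentile. Without this sample, the same 6 genes rose at 8 Gy, where 15.3% of all genes rose, and also at 2 Gy, where 4.19% rose. The changes of the 10 genes are therefore given with and without it. The sample was singled out from these same values. Removing the highest 0 Gy level of a gene by itself widens its gap to the irradiated samples. The values without this sample are therefore not an independent check.

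**Figure D1:**
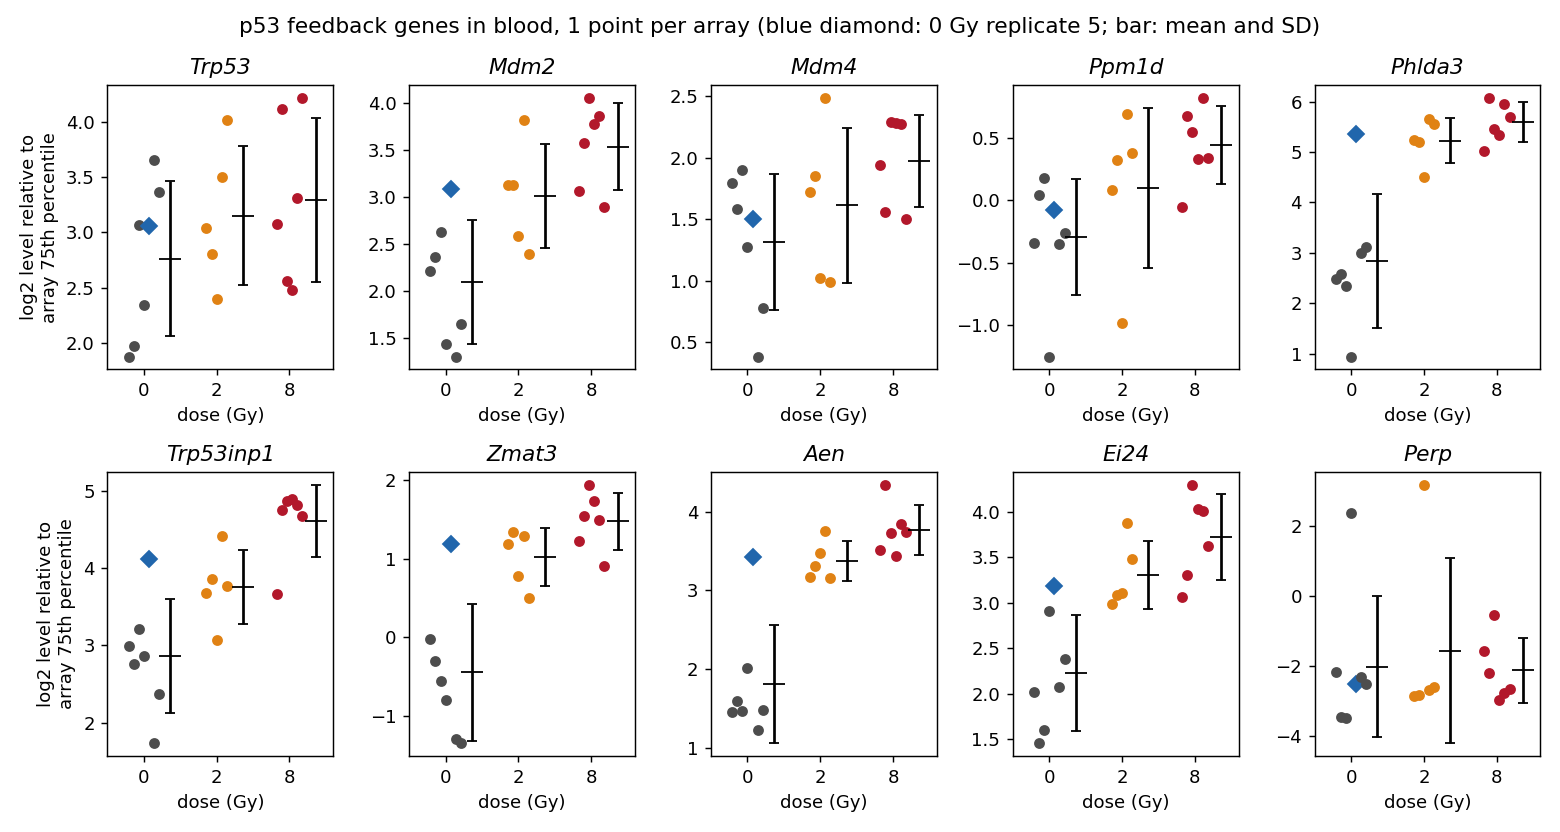
Level of each gene (log2 intensity relative to the array's 75th percentile, y axis) by dose (x axis), with 1 point per array and the mean and SD beside each group; the blue diamond is 0 Gy replicate 5. In the panels of Phlda3, Trp53inp1, Zmat3, Aen, Ei24 and Mdm2 the diamond is the highest 0 Gy point, and all 8 Gy points lie above the other 0 Gy points. The latter held for 6.13% of all genes. That share is not a like comparison, because only 22.2% of all genes were highest at 0 Gy in replicate 5.

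Trp53, which encodes p53 itself, was measured by 2 probes 9175 bases apart. The upstream probe, which stands for the gene, had levels from 1.88 to 3.66 with a median of 3.06 at 0 Gy. At 2 Gy its levels were 3.04, 2.81, 2.40, 3.50 and 4.02, and at 8 Gy they ran from 2.48 to 4.22 with a median of 3.19. The groups overlapped, and only 2 of the 6 samples at 8 Gy lay above every 0 Gy sample. The log2 fold change at 8 Gy was 0.83 ± 0.33 (SE), with an adjusted p of 0.0968.

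The downstream Trp53 probe had the opposite sign, at -0.55 ± 0.18 (adjusted p = 0.0588 over all 22033 probes tested). Its mean was -1.65 ± 0.30 at 8 Gy (SD, n = 6) and -0.89 ± 0.38 at 0 Gy (SD, n = 7). Neither probe passed by itself with all samples kept. The downstream probe passed as lower at 8 Gy without 0 Gy replicate 5 (-0.58 ± 0.19, adjusted p = 0.0443). The difference between the probes within a sample was 4.94 ± 0.79 at 8 Gy and 3.66 ± 0.66 at 0 Gy (SD), a shift of 1.28 (exact 2-sided permutation test over the samples, p = 0.00874, adjusted over 3 comparisons 0.0262). The shift was 0.82 at 2 Gy against 0 Gy (exact p = 0.0404, adjusted 0.0606) and 0.46 at 8 Gy against 2 Gy (exact p = 0.275). This test was chosen after the values of the probes were seen. It had no term for kit, slide or array brightness. The 75th percentile was 58.4 to 232 on the 8 Gy arrays and 138 to 425 on the 0 Gy arrays. Dose and brightness were therefore not separated in this test. With the brightness of each array as a covariate, the 2 Gy change of the upstream probe turned to -0.12.

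Mdm2, the ligase that closes the loop, rose at 8 Gy. Its levels were 1.30 to 3.08 with a median of 2.22 at 0 Gy. They were 3.13, 3.13, 2.59, 3.82 and 2.40 at 2 Gy, and 2.90 to 4.06 with a median of 3.68 at 8 Gy. Of the 6 samples at 8 Gy, 4 lay above every 0 Gy sample, and all 6 did without 0 Gy replicate 5. With that sample left out, 6.13% of all genes had all 8 Gy samples above. The rise was 2.31-fold at 8 Gy (log2 1.21 ± 0.29, adjusted p = 0.0213), and 2.58-fold without that sample (adjusted p = 0.00492).

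The second Mdm2 probe lies 3447 bases from the first and rose by 1.32 ± 0.40 at 8 Gy (log2, adjusted p = 0.0470). Its mean was -0.52 ± 0.65 at 8 Gy and -2.01 ± 0.67 at 0 Gy (SD, n = 6 and n = 7). Both Mdm2 probes therefore passed with the same direction. At 2 Gy the log2 fold change of Mdm2 was 0.84 ± 0.29 (adjusted p = 0.15). It was 0.98 ± 0.28 without 0 Gy replicate 5 (adjusted p = 0.0450). The Mdm2 call at 8 Gy was lost in 8 of the 34 alternative settings, among them the RiboPure arrays alone (adjusted p = 0.0549). It was also lost without 0 Gy replicate 1 (adjusted p = 0.0583), without 0 Gy replicate 2 (adjusted p = 0.0501) and without 8 Gy replicate 4 (adjusted p = 0.0508).

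Mdm4, the relative of Mdm2 that binds p53 without degrading it efficiently by itself, did not pass by its brightest probe. That probe had levels of 0.39 to 1.90 with a median of 1.51 at 0 Gy. The levels were 1.72, 1.86, 1.02, 2.49 and 0.99 at 2 Gy, and 1.5 to 2.29 with a median of 2.11 at 8 Gy. The highest 2 Gy sample lay above all 8 Gy samples. The log2 fold change at 8 Gy was 0.39 ± 0.24 (adjusted p = 0.263). A second Mdm4 probe, A_51_P176954, lies 14307 bases away and passed on its own, at 0.93 ± 0.28 (adjusted p = 0.0456). This second probe had 1.07 ± 0.28 without 0 Gy replicate 5 (adjusted p = 0.0167), so the result for Mdm4 depended on the probe. The Mdm4 probes A_52_P485905 and A_52_P596201 had 0.74 ± 0.41 and 0.22 ± 0.45 and did not pass, and A_52_P174937 was too dim for the filter.

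Ppm1d, which encodes the phosphatase Wip1, had levels of -1.25 to 0.18 with a median of -0.26 at 0 Gy. At 2 Gy they were 0.08, 0.32, -0.99, 0.69 and 0.38, and at 8 Gy -0.06 to 0.82 with a median of 0.45. In 5 of the 6 samples at 8 Gy the level was above all 0 Gy samples. The log2 fold change was 0.77 ± 0.29 at 8 Gy (adjusted p = 0.0778) and 0.40 ± 0.29 at 2 Gy (adjusted p = 0.423). Ppm1d passed at 8 Gy in 2 of 34 alternative settings, without 2 Gy replicate 3 (adjusted p = 0.0421) and without 8 Gy replicate 1 (adjusted p = 0.0471). Its second probe, A_52_P26155, had 0.55 ± 0.28 at 8 Gy, and A_52_P521178 never exceeded the background clearly.

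Phlda3, the PH-domain protein that keeps Akt off the membrane, had the highest fold change of the 10 genes at both doses. Its levels at 0 Gy were 0.95 to 5.36 with a median of 2.59, where 5.36 was replicate 5 and the next was 3.12. At 2 Gy they were 5.24, 5.20, 4.50, 5.65 and 5.55, and at 8 Gy 5.01 to 6.07 with a median of 5.58. Without 0 Gy replicate 5, every irradiated sample lay above every 0 Gy sample. In that comparison 6.13% of all genes had all 8 Gy samples above the rest and 1.98% had all 2 Gy samples above. These shares are not a like comparison, because only 22.2% of all genes had their highest 0 Gy level in the sample left out.

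The rise of Phlda3 at 8 Gy was 7.22-fold (log2 2.85 ± 0.50, adjusted p = 0.00866), and 10.7-fold without 0 Gy replicate 5 (adjusted p = 1.51e-05). At 2 Gy the fold change was 5.35 (log2 2.42 ± 0.50, adjusted p = 0.0624), and 7.52 without that sample (adjusted p = 1.11e-04). The 5 genes whose centred log2 levels differed least from those of Phlda3 over the 18 arrays were Bbc3, Ccng1, Chac1, Jaml and Thyn1. Their root mean square differences were 0.46 to 0.62 on the log2 scale, beside an SD of 1.55 for Phlda3. For Mdm2, with an SD of 0.84, the 5 nearest were Rhbdf2, Dgkg, Cdkn2d, Pik3r6 and Furin, at 0.27 to 0.29.

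Trp53inp1 encodes a stress-induced nuclear protein that promotes p53 activation and autophagy. Its levels were 1.74 to 4.11 with a median of 2.86 at 0 Gy, and 3.68, 3.86, 3.07, 4.41 and 3.77 at 2 Gy. At 8 Gy they were 3.67 to 4.89 with a median of 4.78. The lowest 8 Gy level was that of replicate 1, and the other 5 lay above all 0 Gy and all 2 Gy samples. The rise at 8 Gy was 2.91-fold (log2 1.54 ± 0.31, adjusted p = 0.0114).

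At 2 Gy, Trp53inp1 was at 0.83 ± 0.31 on the log2 fold scale (adjusted p = 0.170), and at 1.03 ± 0.28 without 0 Gy replicate 5 (adjusted p = 0.0409). A second probe, A_52_P503387, had 1.30 ± 0.42 at 8 Gy (adjusted p = 0.0568) and 1.38 ± 0.42 at 2 Gy (adjusted p = 0.125). It passed at 8 Gy without 0 Gy replicate 5 (1.40 ± 0.45, adjusted p = 0.0400). That probe is made of a tandem repeat on chromosome 4, with 2 copies of the 26-base unit AGTACTAATACTTACCACAGCAGGCG.

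Zmat3, a zinc finger RNA-binding protein known to stabilise p53 mRNA, had levels of -1.35 to 1.19 with a median of -0.55 at 0 Gy. At 2 Gy they were 1.18, 1.34, 0.78, 1.30 and 0.50, and at 8 Gy 0.91 to 1.94 with a median of 1.52. Without 0 Gy replicate 5, at 1.19, the highest 0 Gy level was -0.02, below every irradiated sample. With that sample left out, 6.13% of all genes had all 8 Gy samples above and 1.98% had all 2 Gy samples above. The rise at 8 Gy was 3.1-fold (log2 1.63 ± 0.29, adjusted p = 0.00866). The log2 fold change at 2 Gy was 1.38 ± 0.29 (adjusted p = 0.0624), and 1.63 ± 0.21 without that sample (adjusted p = 6.04e-04).

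Aen encodes an apoptosis-enhancing nuclease that degrades DNA. Its brightest probe had levels of 1.23 to 3.42 with a median of 1.48 at 0 Gy, and 3.17, 3.31, 3.48, 3.76 and 3.16 at 2 Gy. At 8 Gy the levels were 3.44 to 4.34 with a median of 3.73. All 6 samples at 8 Gy lay above all 7 samples at 0 Gy, which 0.815% of all genes showed. Aen was the only one of the 10 genes with no overlap at 8 Gy when all samples were kept, by a margin of 3.44 against 3.42. The rise was 3.51-fold (log2 1.81 ± 0.29, adjusted p = 0.00866), and at 2 Gy the log2 fold change was 1.52 ± 0.29 (adjusted p = 0.0624).

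The files place that Aen probe on chromosome 4 and the 2 other Aen probes on chromosome 7, where RefSeq has the gene. The chromosome 7 probe A_52_P443705 had a mean of 1.27 ± 0.35 at 8 Gy and -0.46 ± 0.65 at 0 Gy (SD, n = 6 and n = 7). It rose by 1.71 ± 0.29 at 8 Gy (log2, adjusted p = 0.00799), so the rise of Aen was seen in both probes. On this probe the groups overlapped, with 0.78 in 8 Gy replicate 5 and 0.84 in 0 Gy replicate 5. The third, A_51_P481052, exceeded the background clearly on 2 of 6 arrays at 8 Gy and on none at 2 Gy or 0 Gy. Its means were -3.57 at 8 Gy and -5.31 at 0 Gy. Most arrays had no clear signal for it, so no fold change is given, and it was not tested.

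Ei24 encodes an endoplasmic reticulum membrane protein induced by the damaging drug etoposide. Its levels were 1.45 to 3.18 with a median of 2.07 at 0 Gy, and 2.98, 3.09, 3.1, 3.88 and 3.48 at 2 Gy. At 8 Gy they were 3.07 to 4.30 with a median of 3.82. At 0 Gy, replicates 4 and 5 were high, at 2.91 and 3.18, and all irradiated samples lay above every 0 Gy sample but replicate 5. With replicate 5 left out, 6.13% of all genes had all 8 Gy samples above and 1.98% had all 2 Gy samples above. The rise at 8 Gy was 2.86-fold (log2 1.52 ± 0.31, adjusted p = 0.0128). The log2 fold change at 2 Gy was 1.08 ± 0.31 (adjusted p = 0.110), and 1.27 ± 0.29 without 0 Gy replicate 5 (adjusted p = 0.0211).

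Perp, a membrane protein of epithelial desmosomes that is also a p53 target in apoptosis, was dim in most samples. It was called well above background in 5 of 7 samples at 0 Gy, 2 of 5 at 2 Gy and 3 of 6 at 8 Gy. On 16 of the 18 arrays its level lay between -3.49 and -0.52, and on 2 it was high, at 2.39 in 0 Gy replicate 4 and at 3.20 in 2 Gy replicate 3. The log2 fold change at 8 Gy was -0.34 ± 1.07 (adjusted p = 0.854), and 0.76 ± 0.40 without those 2 arrays (adjusted p = 0.189). The 2 arrays were singled out by these same Perp levels. Leaving out the highest 0 Gy level by itself raises the change at 8 Gy, so the second value is not an independent check. Of 4 measured keratinocyte markers the sum was 1.43 to 10.4 at 0 Gy, 3.74 to 9.14 at 2 Gy and 2.89 to 12.7 at 8 Gy. In the 2 arrays with high Perp it was 10.4 and 3.74. The marker Krt15 was above background on no array.

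**Figure D2:**
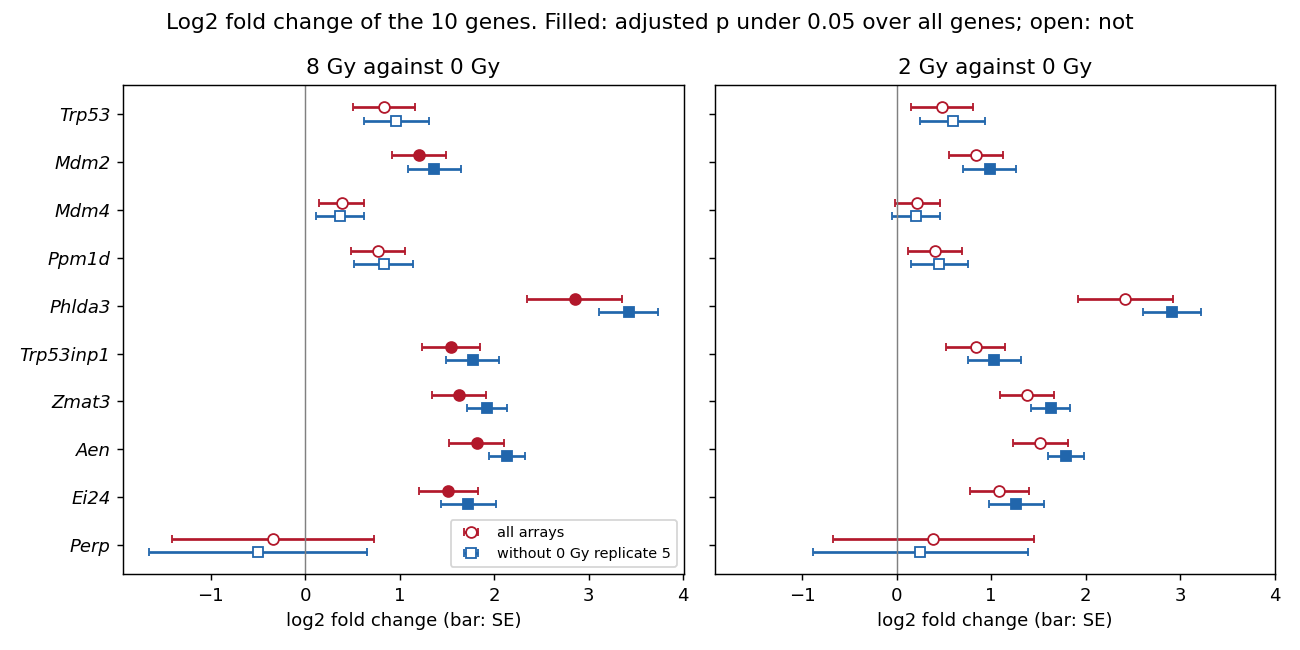
Log2 fold change (x axis) of each gene at 8 Gy against 0 Gy (left) and at 2 Gy against 0 Gy (right), with the SE as a bar; circles use all arrays, squares leave out 0 Gy replicate 5, and filled symbols passed an adjusted p under 0.05. The same 6 genes are filled at 8 Gy with both symbols and at 2 Gy only with squares.

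**Figure D3:**
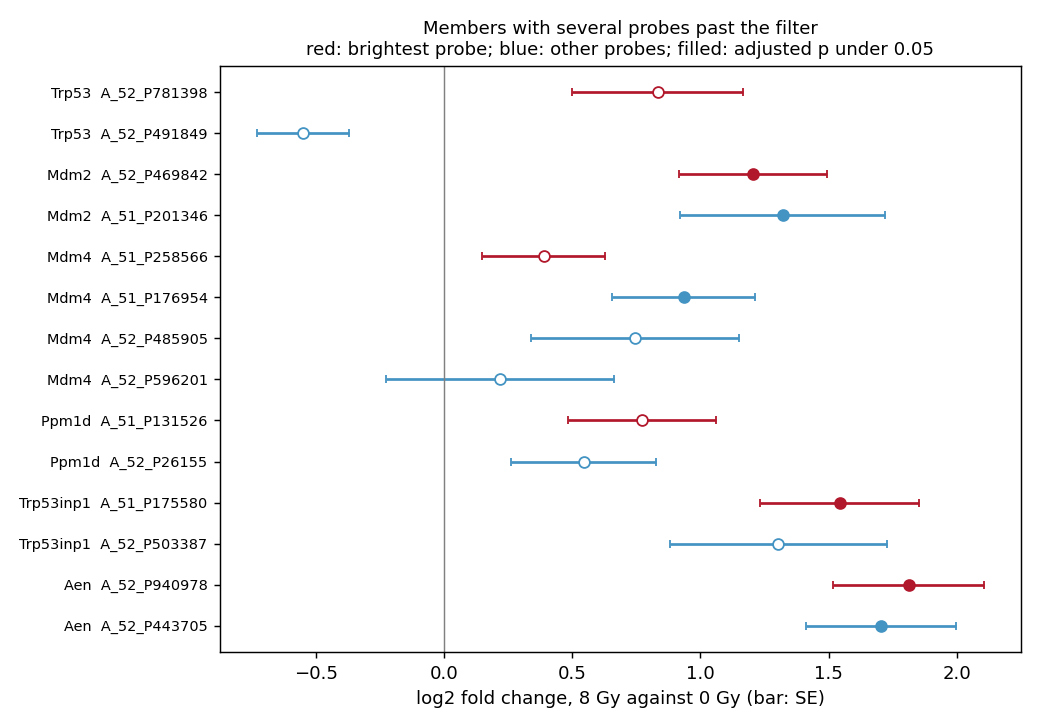
Log2 fold change at 8 Gy against 0 Gy (x axis, bar SE) of each probe of the genes with more than 1 probe past the filter; red is the brightest probe of its gene, and filled symbols passed over all probes. The 2 Trp53 probes lie on opposite sides of 0, and both probes of Mdm2 and of Aen are filled and higher at 8 Gy.

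Without 0 Gy replicate 5, the rises at 8 Gy were 4.39-fold for Aen (adjusted p = 1.51e-05), 3.79-fold for Zmat3 (adjusted p = 7.57e-05), 3.41-fold for Trp53inp1 (adjusted p = 0.00126) and 3.31-fold for Ei24 (adjusted p = 0.00172). At 2 Gy Aen rose 3.47-fold without it (adjusted p = 1.11e-04). The genes that did not pass had log2 fold changes at 8 Gy of 0.96 ± 0.35 for Trp53 (adjusted p = 0.0557), 0.83 ± 0.31 for Ppm1d (adjusted p = 0.0633), 0.37 ± 0.26 for Mdm4 (adjusted p = 0.309) and -0.50 ± 1.15 for Perp (adjusted p = 0.782).

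Over the 18 probes of the 10 genes that passed the filter, 9 passed the test at 8 Gy, all higher, beside 9.98% of all probes.

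The 2 doses were set against each other directly, and none of the 10 genes passed by limma at 8 Gy against 2 Gy, where 0% of all genes passed. In that fit 423 of all 13612 genes had an unadjusted p under 0.05, and of the 10 only Trp53inp1 did. Its log2 fold change was 0.71 ± 0.33 (adjusted p = 0.931), and its 95% interval ran from 0.02 to 1.40. Its second probe, A_52_P503387, had -0.08 ± 0.45 between these doses. The interval was -0.69 to 1.55 for Phlda3, -0.36 to 0.94 for Aen, -0.39 to 0.89 for Zmat3, -0.27 to 1.00 for Mdm2 and -0.26 to 1.12 for Ei24. The median of the 10 was 0.36, beside 0.05 for all genes.

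The file headers name 8 slides and 7 scan days, and the doses were spread unevenly over them. On slide 3, with 2 arrays at 8 Gy and 1 at 0 Gy, Phlda3 was higher at 8 Gy by 2.90 on the log2 scale, Ei24 by 2.15, Aen by 2.12, Trp53inp1 by 1.89, Zmat3 by 1.85 and Mdm2 by 1.70. On scan day 7, the 0 Gy array was replicate 5, and the 8 Gy array differed from it by -0.27 for Zmat3, -0.19 for Mdm2, 0.34 for Phlda3, 0.32 for Aen, 0.45 for Ei24 and 0.56 for Trp53inp1. On slide 1, with 2 arrays at 2 Gy and 1 at 0 Gy, Phlda3 was higher at 2 Gy by 2.63, Aen by 1.64 and Zmat3 by 1.56. On slide 8, with 1 array each from the PAXgene kit, these 3 were higher at 2 Gy by 2.55, 1.93 and 1.79. Slide 5 held 2 Gy replicate 3 and 0 Gy replicate 5, and there the 2 Gy array differed by -1.04 for Trp53inp1, -0.86 for Phlda3, -0.50 for Mdm2, -0.41 for Zmat3, -0.08 for Ei24 and 0.06 for Aen. On slide 4, with 3 arrays at 8 Gy and 1 at 2 Gy, Phlda3, Aen and Zmat3 differed by 0.04, 0.14 and 0.13, and Trp53inp1 by 0.003. Mdm2 and Ei24 were lower at 8 Gy there, at -0.32 and -0.42. On scan day 7, with 1 array at each of these doses, the 8 Gy array was higher by 1.20 for Phlda3, 0.26 for Aen, 0.13 for Zmat3 and 1.61 for Trp53inp1. It was also higher by 0.31 for Mdm2 and 0.52 for Ei24.

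The calls at 8 Gy depended on how slide, scan day and brightness were handled, for these genes and for all others. With slide as a random block all 6 genes passed. With slide as a fixed term none did (adjusted p = 0.397 to 0.583), at log2 fold changes of 1.03 to 2.33. With scan day as a fixed term none passed (adjusted p = 0.242 to 0.281), at 0.84 to 2.12. With array brightness as a covariate none passed (adjusted p = 0.143 to 0.226), at 1.08 to 2.40. All 6 then had an unadjusted p under 0.05, as did 1842 of all 13612 genes. In each of these 3 fits 0 of all 13612 genes passed. The 3 settings were chosen after the data were seen.

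The markers of some blood cell types differed between 8 Gy and 0 Gy on the same arrays. All 8 B cell markers fell at 8 Gy against 0 Gy, and their sum was 5.76 to 74.7 at 8 Gy and 39.2 to 283 at 0 Gy. All 8 neutrophil markers rose, and their sum was 1585 to 3995 at 8 Gy and 471 to 2605 at 0 Gy. None of the T cell, NK cell, monocyte and erythroid markers passed, of 8, 6, 5 and 6 measured, and 2 of 6 platelet markers rose. All 6 platelet markers and the NK marker Klrb1c rose without 0 Gy replicate 5. At 2 Gy no B cell or neutrophil marker passed, and without 0 Gy replicate 5 all 8 B cell markers fell and 7 of 8 neutrophil markers rose. The part of these cell types in the results for the 10 genes was not tested.

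**Figure D4:**
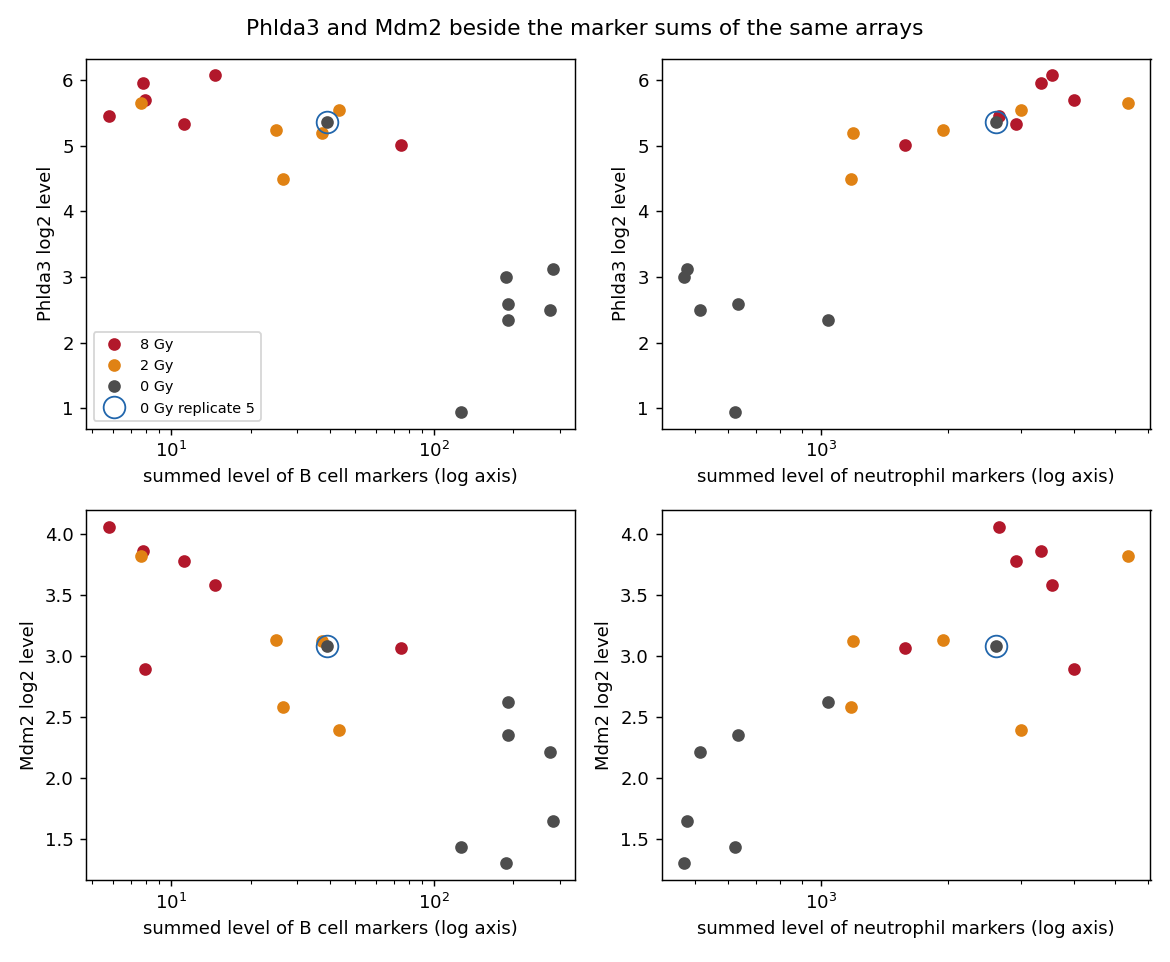
Level of Phlda3 (top) and Mdm2 (bottom) on the log2 scale (y axis) against the summed linear level of B cell markers (left) and neutrophil markers (right) of the same array (x axis, log scale), with 1 point per array coloured by dose. The circled 0 Gy replicate 5 lies among the irradiated arrays in all 4 panels.

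The other genes of the pathway were described with 4 lists. Of 37 other p53 targets, 30 passed the filter, and at 8 Gy 18 of these rose and 1 fell, with a median log2 fold change of 1.19. Among all genes, 7.58% rose and 4.39% fell. The cyclin G gene Ccng1 rose by 2.19 ± 0.33, Psrc1 by 4.37 ± 0.70, the cell cycle inhibitor Cdkn1a by 3.41 ± 0.56 and the polymerase gene Polk by 1.79 ± 0.30 (adjusted p = 0.00854 to 0.00866). Sesn1 fell by 0.91 on the log2 scale (adjusted p = 0.0497). At 2 Gy only Psrc1 passed (4.05 ± 0.70, adjusted p = 0.0375), and 13 rose without 0 Gy replicate 5, where 4.19% of all genes rose.

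Of 33 measured p53 regulators, such as its kinases and acetylases, none rose and 2 fell at 8 Gy. Among all genes, 7.58% rose and 4.39% fell. The median log2 fold change of the 33 regulators was 0.07. Those that fell were Npm1, the nucleolar protein nucleophosmin, by 0.84 (adjusted p = 0.0268), and the deubiquitinase gene Usp10, by 1.21 (adjusted p = 0.0392). Ppp1r13l, which encodes the p53 inhibitor iASPP, had 1.42 ± 0.50 (adjusted p = 0.0662), and the kinase gene Gsk3b had 0.76 ± 0.27 (adjusted p = 0.0678). Without 0 Gy replicate 5, 3 regulators rose and 2 fell, where 15.3% of all genes rose and 993 of 13612 fell.

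In the Akt pathway, the branch on which Phlda3 acts, 2 of 17 measured genes fell and none rose at 8 Gy. Foxo1, a transcription factor restrained by Akt, fell by 1.28 (adjusted p = 0.0107), and Phlpp2, a phosphatase that inactivates Akt, fell by 0.98 (adjusted p = 0.0257). Akt2, a form of the kinase itself, had 0.76 ± 0.24 (adjusted p = 0.0507). Over all genes 4.39% fell. Without 0 Gy replicate 5, 3 genes of this list rose and 3 fell, where 15.3% of all genes rose and 993 of 13612 fell.

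Of 18 measured family relatives of the 10 genes, 2 rose and 1 fell at 8 Gy. Among all genes, 7.58% rose and 4.39% fell. The nuclease gene Isg20, a relative of Aen, rose by 1.01 ± 0.30 (adjusted p = 0.0422), and Phlda2, the relative of Phlda3, by 0.93 ± 0.30 (adjusted p = 0.0497). Ppm1f, of the phosphatase family of Ppm1d, fell by 0.62 (adjusted p = 0.0427). Ppm1e had -1.08 ± 0.36 at 8 Gy (adjusted p = 0.0565) and passed at 2 Gy as lower (adjusted p = 0.0375). Its probe exceeded the background clearly in 0 of 5 samples at 2 Gy and in 6 of 7 at 0 Gy. The 2 Gy levels were then raised to at least the lowest signal that was well above background on their array. With this, the mean was 1.44-fold higher at 0 Gy. That value is not adjusted for kit and is not a strict minimum.

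RefSeq promoter windows of the mouse build GRCm38.p6, from 250 bases before to 50 after the start of a gene, were at hand for 7 of the 10 genes. They were searched for the p53 half-site consensus, which has 10 bases and reads the same on both strands, with no mismatch allowed. It was found in 6 of the 9 windows of these genes, those of Aen (both windows, at 1 shared place), Ei24, Mdm2, Trp53 and Ppm1d, and in 8.36% of all 32851 windows. No match was in the windows of Mdm4 and Phlda3. The match is in capitals, within 30 bases read on the strand of the gene. That strand is minus for Ei24 and Mdm2 and plus for Aen, Trp53 and Ppm1d.
Aen, chr7:78895927-78895956: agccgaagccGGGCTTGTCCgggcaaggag
Ei24, chr9:36797325-36797354: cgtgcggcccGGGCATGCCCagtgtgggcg
Mdm2, chr10:117710925-117710954: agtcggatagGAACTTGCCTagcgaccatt
Trp53, chr11:69580274-69580303: acccacggaaGGACTTGCCCttacttgtta
Ppm1d, chr11:85311112-85311141: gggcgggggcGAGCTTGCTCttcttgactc
The genes with a match included 3 that rose at 8 Gy (Aen, Ei24 and Mdm2) and 2 that did not pass (Trp53 and Ppm1d), and Phlda3 rose with no match in its window. The matches describe the letters of these windows and were not tested as binding sites.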

How the data were processed

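Per the file headers and the submitters' processing notes, the scanner intensity is the processed signal of Agilent Feature Extraction 9.5.3.1, background subtracted and detrended. The deposited series table also holds an intensity; its steps from the scanner files are not given in the sources used here, and it served as an alternative. Here, spots of a probe were averaged as log2 signals, less the array's 75th percentile. A probe had to be well above background on 5 or more of the 18 arrays, and the brightest such probe stood for its gene. Gene names were updated through RefSeq. The model of dose and kit was fitted with limma 3.58.1 (R 4.3.3, statmod 1.5.0, and the package data.table in version 1.17.8), with 2-sided tests and Benjamini-Hochberg adjustment, and was checked on simulated data. The number of arrays limits the precision. The genes and lists were chosen with earlier results of these data known. The text names all 10 genes, of each pathway list the 4 with the smallest p at 8 Gy (1 of these is not reported here), and the 5 nearest to Mdm2 and to Phlda3; Sesn1 was named after its value was seen. Alternatives covered normalization, background, filter, probe choice, kit, slide, scan day, replicate block, pairs of doses alone and each array left out.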

Additional observations from a re-analysis of the deposited data

Results flagged for a closer look

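Over the 30 combinations of 10 genes and 3 doses, 5 single samples lay far from the rest of their group by Dixon's test, of which chance gives about 1 in 20 groups. Ppm1d was at -1.25 in 0 Gy replicate 4, with the other 0 Gy samples at -0.36 to 0.18. Trp53inp1 was at 3.67 in 8 Gy replicate 1, with the other 8 Gy samples at 4.68 to 4.89. Aen was at 3.42 in 0 Gy replicate 5, with the others at 1.23 to 2.01. Perp was at 3.20 in 2 Gy replicate 3, with the others at -2.84 to -2.59, and at 2.39 in 0 Gy replicate 4, with the others at -3.49 to -2.16.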

How the results depend on the processing

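Of the 6 rises at 8 Gy against 0 Gy, those of Phlda3, Aen, Zmat3, Trp53inp1 and Ei24 passed in 31 of 34 alternative settings and that of Mdm2 in 26. The count of genes passing was 0 with slide as a fixed term, 0 with scan day as a fixed term and 0 with array brightness as a covariate, 3 settings added after the data were seen, and 0 of all 13612 genes passed in each of them; the cause was not tested. Leaving out each sample gave 5 to 7. At 2 Gy against 0 Gy the count was 2 with quantile normalization and 3 with normexp background correction, where 41 and 125 of all genes passed beside 8 in the model reported, and 0 to 6 with each sample left out, with 6 without 0 Gy replicate 5 and 3 without 8 Gy replicate 1 (160 of all genes). At 8 Gy against 2 Gy it was 0 in all settings. Signs turned for genes that did not pass: Perp at 8 Gy against 0 Gy, with slide fixed (1.28), scan day fixed (0.15) and samples left out (-0.72 to 0.57); Perp at 2 Gy (-0.74 to 1.17) and at 8 Gy against 2 Gy (-1.14 to 0.55) with samples left out; Mdm4 at 8 Gy against 2 Gy, with slide fixed (-0.20), scan day fixed (-0.11) and samples left out (-0.046 to 0.36); and Trp53 at 2 Gy with the brightness covariate (-0.12). With the replicate number as a block, 5 genes passed at 8 Gy, with Mdm2 lost (adjusted p = 0.0737), and 0 at 2 Gy. Correlations of same-numbered samples ran from -0.34 to 0.49 with a median of 0.095. Those of differently numbered samples ran from -0.52 to 0.69 with a median of -0.019. These ranges overlap and do not settle whether the numbers pair samples. Quantile normalization moved the median of all genes at 8 Gy to -0.02, and 45.5% of the genes that passed were then higher, beside 63.4%; relative to that median the 10 genes had a median of 1.18, beside 1.28. Over all genes 1142 passed with it and 1629 in the model reported.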

Other observations

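The 2 arrays with high Perp, 0 Gy replicate 4 and 2 Gy replicate 3, exceeded all 16 other arrays by at least 2 on the log2 scale for 246 of 13602 genes, or 1.81%. For Perp the gap was 2.91. None of the 10 genes passed the limma test of the PAXgene against the RiboPure kit, which set 3 arrays against 15. The smallest adjusted p was 0.0631, for Mdm4, at -0.94 ± 0.27. The kit differences ran from -1.02 ± 0.33 for Zmat3 (adjusted p = 0.0935) to 1.06 ± 0.38 for Trp53 (adjusted p = 0.126).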
